A study of Homo sapiens with 6 samples.

Results

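The annexins are a family of proteins that bind phospholipid membranes when calcium is present, and the genes described here are ANXA1, ANXA2, ANXA3, ANXA4, ANXA5, ANXA6, ANXA7, ANXA9, ANXA10 and ANXA11. They were chosen by symbol, as 10 of the 58884 genes in the table, and each symbol stood in 1 row. RNA-seq was performed on KYSE70, a long-established cell line from a human squamous cell carcinoma of the esophagus, in which NFE2L2, the gene for the transcription factor NRF2, is mutant. The comparison line, NRF2null-KYSE70, was grown from a single KYSE70 clone after CRISPR-Cas9 editing of NFE2L2. Both lines were grown without treatment in RPMI1640 medium with fetal bovine serum, penicillin and streptomycin, and each gave 3 libraries. The study detected NFE2L2 transcript variants for smaller proteins and a faint, smaller NRF2 band in the edited cells, so NRF2 was not fully removed. Since 1 clone stood for the edited genotype, the variation between clones was not measured. An effect of editing NFE2L2 cannot be told apart from a property of this clone.

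Annexins share a conserved core that binds calcium and acidic phospholipids, joined to a tail at the amino terminus that differs between members and docks other proteins, above all small calcium-binding proteins of the S100 family. Through this they bring together membranes, actin and signalling proteins, take part in secretion and endocytosis and help to reseal torn plasma membrane. In stratified squamous epithelia such as that of the esophagus, ANXA1 and ANXA2 are abundant proteins of the keratinocyte.

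Between 52072801 and 63975313 reads were assigned to genes in each library. Values are normalized counts, that is, reads per gene divided by a size factor for each library, and each fold change compares NRF2null-KYSE70 with KYSE70 on the scale of log2(normalized count + 1). NFE2L2 RNA, the check of the labels, went from 9928 ± 102 normalized counts in the parental line to 6093 ± 319 in the clone (log2 fold change -0.71, adjusted p = 9.37e-08 by limma; SD, n = 3 each), so its RNA was lower and still present in the edited line. Of its merged exon bases, 23.4% lie opposite exons of HNRNPA3 and 13.6% belong also to another gene on its strand. How many of its reads came from those genes was not tested. KEAP1, which encodes the adaptor that targets NRF2 for breakdown, had a log2 fold change of -0.78 (adjusted p = 1.2e-07). All 12 squamous epithelial markers examined had reads in every library, though KRT19 had only 8, 1 and 17 in KYSE70. Their summed normalized counts lay between 346967 and 355913 in KYSE70 and between 268212 and 281956 in NRF2null-KYSE70. KRT5 was the largest part of these sums, and its mean went from 209917 ± 2822 to 124640 ± 3103. At an adjusted p under 0.05, 7 of these markers were higher and 5 were lower. The lower ones were TP63 (log2 fold change -0.92), PKP1 (-0.78), KRT5 (-0.75), DSG3 (-0.74) and DSC3 (-0.33). Besides KRT14 and KRT19, the higher ones were KRT6A (0.69, from 37356 to 60323), KRT17 (0.66), CDH1 (0.60), EPCAM (0.30) and SOX2 (0.15). KRT14 (1.74) and KRT19 (1.92) passed both thresholds upward, and KRT19, with few reads, kept its call in 7 of 16 alternatives (adjusted p up to 0.124). KRT19 had a mean of 8.65 in KYSE70 and was tested only through its level in the edited line. Markers of leukocytes, endothelium and fibroblasts summed to 1532 to 1769 in KYSE70 and 802 to 1112 in NRF2null-KYSE70. Of those 14 markers, COL1A2 and DCN had no read, 7 never exceeded 3 reads in a library, and PTPRC (5.13), VWF (1.28), COL1A1 (-1.16) and COL3A1 (-4.79) passed both thresholds. PTPRC, with 0, 0 and 1 reads against 42, 41 and 42, reached the mean of 10 needed for the test through the edited line. COL3A1, with a mean of 8.46 in the edited line, reached it through KYSE70. The part of these markers in the annexin results was not tested.

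The annexins ranged from ANXA2, among the most abundant transcripts of both lines, to the rare ANXA3, ANXA9 and ANXA10, and most of the tested ones differed between the lines by well under 2-fold. ANXA2, ANXA5, ANXA1 and ANXA11 were higher in NRF2null-KYSE70, ANXA10, ANXA6 and ANXA4 were lower, and ANXA7 and ANXA9 did not pass the test. Of the 10 genes, 9 reached the mean normalized count of 10 needed for the test and ANXA3 did not. At an adjusted p under 0.05, 4 were higher and 3 were lower, or 7 of 9, where the test called 57.6% of all 15994 tested genes (29.3% higher and 28.3% lower). With a fold change of at least 2 also required, 1 of 9 passed, ANXA10, downward, beside 14.7% of all tested genes (7.23% higher and 7.43% lower). For those 7 genes no edited library overlapped the parental range, a pattern found for 63.4% of tested genes (32.1% higher and 31.3% lower). The median log2 fold change over the 9 annexins was 0.13, and it was -0.01 over all tested genes. Their median absolute log2 fold change was 0.26, beside 0.36 over all tested genes. In RNA from whole cultures, fewer cells of a type and less RNA per cell cannot be told apart.

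**Figure D1:**
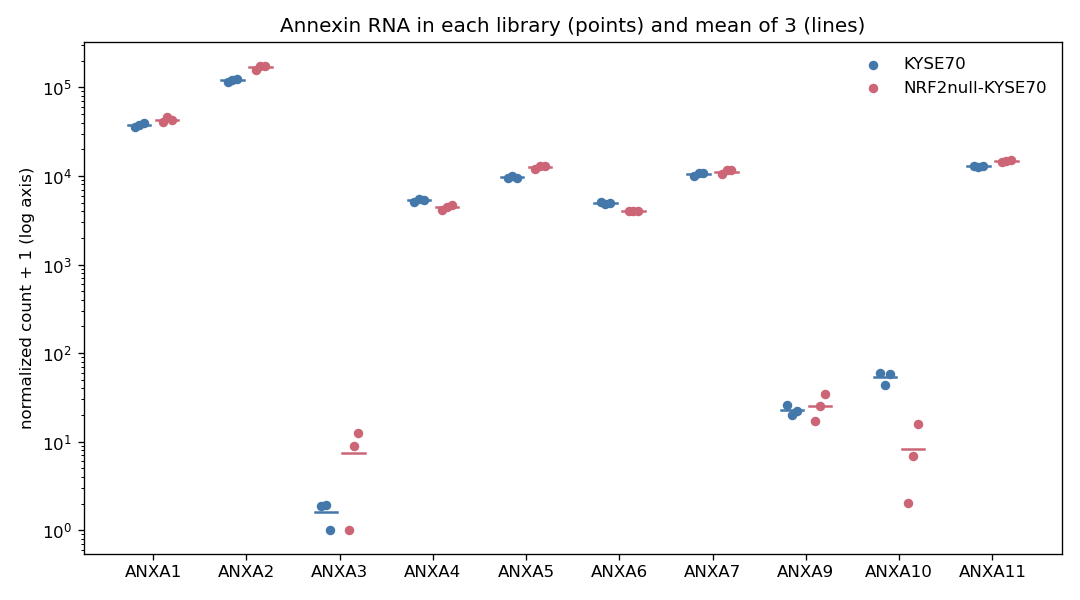
Normalized count + 1 (log axis) of each annexin in the 3 KYSE70 libraries (blue) and the 3 NRF2null-KYSE70 libraries (red), with horizontal lines at the mean of 3. ANXA2 stands highest, at 114572 or more in every library, ANXA10 falls from a mean of 52.8 to 7.25, and ANXA3 has the lowest mean in both lines, with libraries from 0 to 11.4.

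ANXA2, which pairs with S100A10 and serves as a docking site for plasminogen at the cell surface, was the most abundant annexin and rose the most among those with a higher level. It is ENSG00000182718, on the minus strand of chromosome 15 from 60347134 to 60402883 (hg38). Its normalized counts were 114572, 122313 and 123208 in KYSE70 and 155440, 175640 and 173307 in NRF2null-KYSE70. Every edited library was above every parental one. The mean went from 120031 ± 4749 to 168129 ± 11050 (SD, n = 3 each), 1.40-fold (95% interval 1.28 to 1.53 in the limma fit; log2 fold change 0.48, SE 0.060, adjusted p = 1.69e-05).

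ANXA2 has a processed pseudogene, ANXA2P2, whose copy of the coding sequence differed from that of ANXA2 at 16 of 1017 bases, which raises the question of which gene a read belongs to. Of the 1405 windows of 150 bases, the read length, in the ANXA2 transcript, 8.19% occur unchanged in ANXA2P2, and the rest do not. The stretch below, coding bases 161 to 220 of ANXA2 in the GENCODE v44 canonical transcripts, is shown because it holds 5 of those differences, in capitals, and a read across it tells the 2 genes apart.
ANXA2: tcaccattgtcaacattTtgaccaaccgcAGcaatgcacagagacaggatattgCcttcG
ANXA2P2: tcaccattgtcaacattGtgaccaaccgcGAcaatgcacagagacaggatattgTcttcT
For ANXA2P2, 499 ± 33.3 normalized counts in the parental line stood against 706 ± 66.6 in the edited one (log2 fold change 0.50, adjusted p = 0.000976 by limma). The count of ANXA2 was 241 times that of ANXA2P2 in KYSE70 and 239 times in NRF2null-KYSE70, with SDs of 19.9 and 8.36 and overlapping libraries (two-sided exact permutation test, p = 0.9, in a design that cannot go below 0.1). A second pseudogene, ANXA2P1, had means of 18.7 and 22.1 and did not pass (0.10, adjusted p = 0.866). Whether ANXA2P2 counts came from ANXA2 RNA was not tested. None of the other 9 annexins shared an unchanged 150-base window with another gene.

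ANXA1, an inhibitor of cytosolic phospholipase A2 and, when secreted, a ligand of formyl peptide receptors, was the second most abundant member. The gene, ENSG00000135046, lies on the plus strand of chromosome 9 from 73151865 to 73170393. Normalized counts were 35546, 37568 and 39644 in KYSE70 and 40250, 46105 and 43263 in NRF2null-KYSE70. The lowest edited library stood just above the highest parental one. The log2 fold change was 0.20 (95% interval 0.07 to 0.33, SE 0.059, adjusted p = 0.0108), the least secure of the 7 calls. It was no longer past an adjusted p of 0.05 without KYSE70 library 1 (0.16, adjusted p = 0.0571) or without NRF2null-KYSE70 library 2 (0.15, adjusted p = 0.0603).

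ANXA5, which coats phosphatidylserine on the cell surface and is the usual probe for dying cells, rose with little spread between libraries. It is ENSG00000164111, on the minus strand of chromosome 4 from 121667946 to 121696995. The libraries read 9519, 9940 and 9462 in KYSE70 and 12097, 12893 and 12800 in NRF2null-KYSE70. The lines were clearly apart, with means of 9640 ± 261 and 12597 ± 435, 1.31-fold (95% interval 1.22 to 1.40; log2 fold change 0.39, adjusted p = 1.34e-05).

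ANXA11 and ANXA7 have long tails and bind proteins of the penta-EF-hand group, small calcium sensors such as PDCD6 and sorcin. ANXA11, known for tethering RNA granules to lysosomes, is ENSG00000122359, on the minus strand of chromosome 10 from 80150889 to 80205572. Its libraries held 13049, 12686 and 12909 normalized counts in KYSE70 and 14458, 14597 and 14931 in NRF2null-KYSE70. This was the tightest of the higher members, with coefficients of variation of 1.42% and 1.66%, and its small difference (log2 fold change 0.19, SE 0.042) passed at an adjusted p of 0.00214. With quantile normalization ANXA11 was at 0.06 (adjusted p = 0.289) and no longer passed. ANXA7, first known as synexin for its part in granule fusion, is ENSG00000138279, on the minus strand of chromosome 10 from 73375101 to 73414076. Its libraries held 10058, 10665 and 10726 in KYSE70 and 10431, 11605 and 11557 in NRF2null-KYSE70. The lowest edited library fell inside the parental range, and the log2 fold change of 0.09 (95% interval -0.02 to 0.21) had an adjusted p of 0.15. Without that library, NRF2null-KYSE70 library 1, ANXA7 passed the test (0.14, adjusted p = 0.00787). Of ANXA7's exon bases, 3.67% lie opposite the exons of a long noncoding RNA, and reads of the pair cannot be told apart if strand was not used in counting.

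ANXA6 and ANXA4 were lower in the edited line. ANXA6, the member with a duplicated core, brings the RAS inhibitor RASA1 to the plasma membrane. The gene is ENSG00000197043, on the minus strand of chromosome 5 from 151100706 to 151157815. ANXA6 gave 5095, 4760 and 5009 in KYSE70 and 4055, 4038 and 4037 in NRF2null-KYSE70. The edited libraries were nearly identical and all below the parental ones, at 81.6% of the parental mean (log2 fold change -0.29, 95% interval -0.40 to -0.19, adjusted p = 0.000214). ANXA4, found at the membranes of secretory and other epithelia, is ENSG00000196975, on the plus strand of chromosome 2 from 69644425 to 69827112. ANXA4 gave 5115, 5485 and 5359 in KYSE70 and 4125, 4506 and 4713 in NRF2null-KYSE70. Again no library overlapped, and the mean stood at 83.6% of the parental one (log2 fold change -0.26, 95% interval -0.39 to -0.13, adjusted p = 0.00193).

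**Figure D2:**
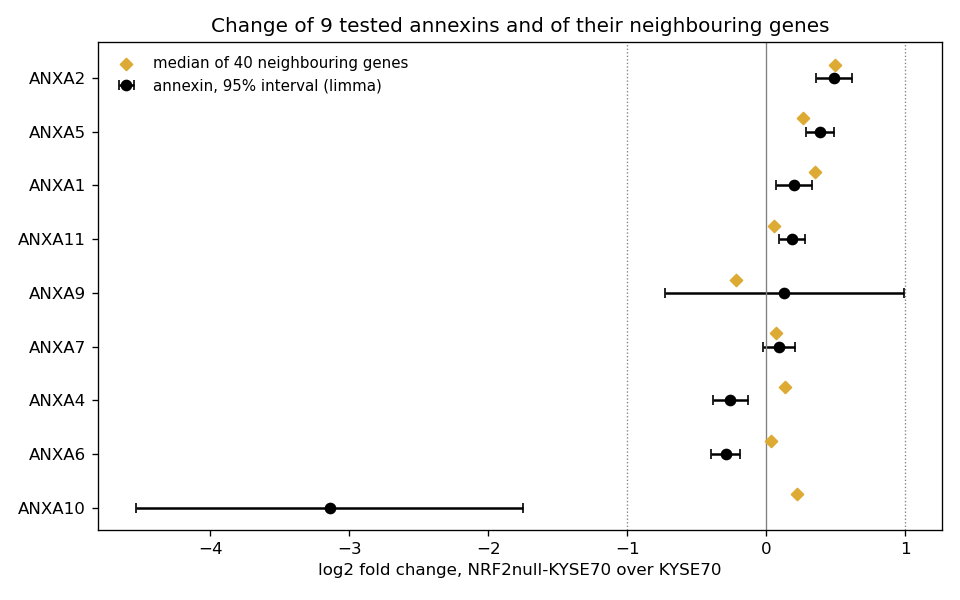
Log2 fold change of the 9 tested annexins (black points, 95% intervals from limma), with the median log2 fold change of the 40 nearest tested protein-coding genes (yellow diamonds) and dotted lines at a 2-fold change. ANXA10 (-3.14) is the only one beyond the dotted lines, and for ANXA2 the point (0.48) and the diamond (0.49) lie together.

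ANXA10, an atypical member best known from the stomach epithelium, was the one tested annexin past both thresholds, and it was a rare transcript in both lines. It is ENSG00000109511, on the plus strand of chromosome 4 from 168092537 to 168187736. The parental libraries held 66, 47 and 54 reads (58.7, 42.6 and 56.9 normalized counts), and the edited ones held 1, 6 and 13 (1.01, 5.88 and 14.8 normalized counts). The highest edited library was well below the lowest parental one, but the edited libraries differed among themselves more than the parental ones did. The mean fell from 52.8 ± 8.81 to 7.25 ± 7.01 (SD, n = 3 each), or to 13.7% (log2 fold change -3.14, SE 0.64, 95% interval -4.54 to -1.75, adjusted p = 0.00102 by limma). On the recovered reads, DESeq2 gave -2.90 and edgeR -2.88. ANXA10 reached the filter through its KYSE70 level, since its mean in the edited line was under 10. Summed over libraries, 167 against 20 reads made a 7.58-fold lower level with a 95% interval for counting error alone of 4.75 to 12.7. That interval understates the error, because the edited libraries scattered beyond counting noise (chi-square per degree of freedom 6.52, beside 1.61 in KYSE70). Without NRF2null-KYSE70 library 1, which held 1 read, the log2 fold change was -2.35 (adjusted p = 0.00021).

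ANXA3 and ANXA9 were the other rare members. ANXA3, ENSG00000138772, on the plus strand of chromosome 4 from 78551747 to 78610451, was read 1, 1 and 0 times in the parental libraries and 0, 8 and 10 times in the edited ones. The reads in the edited line came from 2 of its 3 libraries. The summed ratio of 18 to 2 reads was 9.92 (95% interval for counting error 2.37 to 88.1), but in a fit without the filter the log2 fold change of 1.64 (SE 0.86) had an adjusted p of 0.179 over 28451 genes. ANXA9, a member whose calcium-binding sites are degenerate, is ENSG00000143412, on the plus strand of chromosome 1 from 150982249 to 150995634. Its libraries held 24.9, 19.0 and 21.1 normalized counts in KYSE70 and 16.2, 24.5 and 33.1 in NRF2null-KYSE70. The libraries of the 2 lines were interleaved, and with an interval of -0.73 to 0.99 around a log2 fold change of 0.13 a difference was not detectable at this depth (adjusted p = 0.803).

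The remaining human annexin genes outside the 10 are ANXA8, its near copy ANXA8L1 and ANXA13. ANXA8 (5096 and 5274 normalized counts; log2 fold change 0.05, adjusted p = 0.381) and ANXA8L1 (2303 and 2403; 0.06, adjusted p = 0.368) did not pass the test. Their coding sequences differ at 5 of 981 bases, and 57.2% of the 150-base windows of ANXA8 occur in another gene, so the split of reads between them is uncertain. ANXA13 had 1 read in KYSE70 and 19 in NRF2null-KYSE70, a ratio of 20.9 with a counting interval of 3.33 to 869.9, and was below the filter.

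Levels of different genes were compared per kilobase of merged exons. In KYSE70 the order was ANXA2 (10371 ± 410 normalized counts per kilobase), ANXA1 (8441 ± 460), ANXA7 (3663 ± 129), ANXA5 (3296 ± 89.3), ANXA11 (1513 ± 21.5), ANXA6 (899.6 ± 31.5), ANXA4 (481 ± 17.0), ANXA10 (28.7 ± 4.80), ANXA9 (13.6 ± 1.86) and ANXA3 (0.122 ± 0.106). No neighbours in this order had overlapping libraries, although ANXA7 and ANXA5 differed by only 1.11-fold. In NRF2null-KYSE70 the levels per kilobase were 14526 ± 955 for ANXA2, 9703 ± 657 for ANXA1, 4307 ± 149 for ANXA5, 3913 ± 232 for ANXA7, 1722 ± 28.6 for ANXA11, 734 ± 1.86 for ANXA6, 402 ± 26.9 for ANXA4, 15.4 ± 5.29 for ANXA9, 3.95 ± 3.82 for ANXA10 and 1.31 ± 1.19 for ANXA3. Only ANXA10 and ANXA3 overlapped there. ANXA5 and ANXA7 had changed places between the lines, as had ANXA9 and ANXA10. The first exchange depended on the length used: per kilobase of the canonical transcript, ANXA5 ranked 3 and ANXA7 ranked 4 in both lines. Among all tested genes, ANXA2 ranked 182 in level per kilobase in KYSE70 and 125 in NRF2null-KYSE70, and ANXA1 ranked 226 and 188. These levels depend on the length too, since ANXA2 has 11574 merged exon bases and a canonical transcript of 1554. Per kilobase of the canonical transcript, ANXA2 stood at 77240 and ANXA1 at 26828 in KYSE70. Ranks among all tested genes were not taken on that length.

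ANXA2 made up most of the annexin total. The share of all normalized counts taken by the 10 genes was 0.354% ± 0.0128 for the parental line and 0.432% ± 0.0282 for the edited line (SD, n = 3 each). Of annexin counts, ANXA2 held 59.7% in KYSE70 and 65.1% in NRF2null-KYSE70. The share of ANXA1 was 18.7% and 16.7%. Within each library, ANXA2 was 3.20 times ANXA1 on average in KYSE70 and 3.89 times in NRF2null-KYSE70, with no overlap between the lines (two-sided exact permutation test, p = 0.1, the smallest p that 3 against 3 libraries can give).

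Libraries of the edited line were not alike in their annexins. NRF2null-KYSE70 library 1 was the lowest of its line for 9 of the 10 genes, all but ANXA6. Over all tested genes it was the lowest of its line for 35.9% and the highest for 40.7%. This library also stood furthest from the others of its line. Its median absolute log2 distance from the mean of the other 2 was 0.146, beside 0.082 to 0.108 for the remaining libraries of both lines. With this library left out, ANXA2 had a log2 fold change of 0.54, ANXA1 of 0.25, ANXA5 of 0.41, ANXA6 of -0.29, ANXA4 of -0.21 and ANXA11 of 0.20, each past an adjusted p of 0.05. The 10 genes come from the same libraries, so their shared order is not 9 separate observations.

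Several annexins lie among genes that differed in the same direction. Of the 40 tested protein-coding genes nearest to ANXA2, spread over 8.56 Mb of chromosome 15 from 55826922 to 64387687, 36 were higher in NRF2null-KYSE70 and 32 of these passed an adjusted p of 0.05. Their median log2 fold change was 0.49, beside 0.48 for ANXA2, and 6.67% of the 15904 genes with enough neighbours had a neighbourhood median at least as far from 0. Around ANXA1 the median was 0.35, with 29 of 40 neighbours higher. After the neighbourhood median was subtracted, ANXA2 stood at -0.01 (adjusted p = 0.929) and ANXA1 at -0.15 (adjusted p = 0.0431), so their higher levels were not beyond those of the surrounding genes. ANXA5 was 0.12 (adjusted p = 0.0476) and ANXA11 was 0.13 (adjusted p = 0.0187) above the median of their neighbours. Each median was subtracted as a fixed value, so these p-values leave out the spread among the neighbours. The neighbours' lower and upper quartiles were 0.05 and 0.63 around ANXA5, -0.55 and 0.27 around ANXA11, and -0.04 and 0.86 around ANXA1. The log2 fold changes of ANXA5 (0.39), ANXA11 (0.19) and ANXA1 (0.20) lay inside them. The lower members kept their direction and their calls: ANXA10 at -3.36 (adjusted p = 0.000808), ANXA4 at -0.40 (adjusted p = 9.33e-05) and ANXA6 at -0.33 (adjusted p = 0.000112). Whether the surrounding regions differ between the lines in a way that sets these values was not tested.

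**Figure D3:**
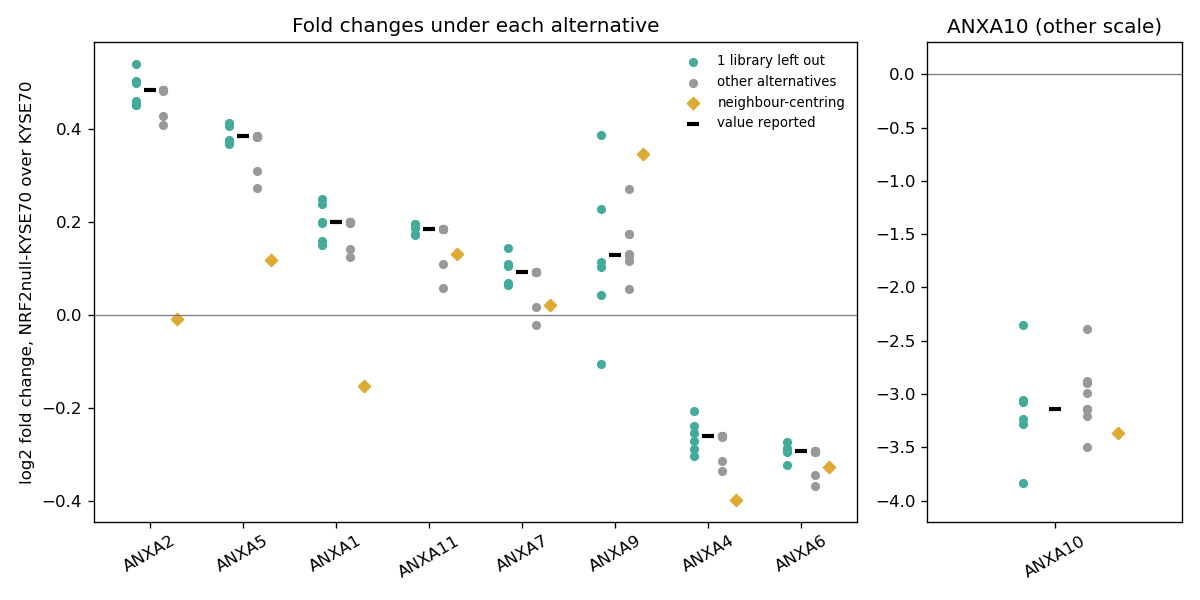
Log2 fold change of each tested annexin as reported (black bar), with 1 library left out (green), under other processing (grey) and after neighbour-centring (yellow diamond), with ANXA10 on a scale of its own. ANXA4 and ANXA6 stay below 0 and ANXA5 and ANXA11 above 0 throughout, while ANXA2 (-0.01) and ANXA1 (-0.15) cross 0 only under neighbour-centring.

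The promoters were examined because the edited gene encodes a transcription factor. NRF2 with a small MAF protein binds the antioxidant response element, whose core was searched as TGACNNNGC, and the related AP-1 element was searched as TGANTCA, on both strands. The 2 patterns can overlap, since 1 stretch of DNA can hold both. All 10 genes had a RefSeq promoter (GRCh38.p14, the same build as hg38), 14 windows in all, and the 250 bases before each start site were read. The first pattern was in 0 of the 14 windows, beside 10.9% of 35116 promoters of the same length. The second was in 1, beside 6.57% of all promoters. No match says only that these letters are not in this window. Parts of some windows are themselves annotated as exons in GENCODE v44: 134 of the 250 bases for ANXA2, and 233 and 160 bases in the windows of ANXA4. The match is 127 bases before an ANXA2 start site, and its 7 letters are in capitals in the 30-base stretch shown here, on the minus strand of chromosome 15 from 60398096 to 60398125.
ANXA2 promoter: ggcgggccggggTGAGTCAcccctgacttg
The ANXA10 promoter, printed because ANXA10 was the one member past both thresholds, is the plus strand of chromosome 4 from 168092287 to 168092536, chr4:168092287-168092536, and holds neither pattern, so it has no capitals.
ANXA10 promoter: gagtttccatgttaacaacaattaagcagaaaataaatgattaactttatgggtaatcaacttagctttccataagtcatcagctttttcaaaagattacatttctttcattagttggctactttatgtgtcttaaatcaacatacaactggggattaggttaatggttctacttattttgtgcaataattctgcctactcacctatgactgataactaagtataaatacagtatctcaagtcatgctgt
It is the window with the fewest G and C bases, 31.2%, where the median over all promoters is 58.0% and 2.39% of promoters are at or below it. The ANXA1 window had 38.4%, and the other members' windows had 50.0% to 78.8%.

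Partner genes of the annexins were read from the same limma fit, list by list. Of the S100 proteins that dock on annexin tails, 4 of 7 were tested, with 1 higher and 2 lower at an adjusted p under 0.05, beside 29.3% higher and 28.3% lower among all tested genes. S100A10, the partner of ANXA2, stood at 25124, 26289 and 27503 in KYSE70 and 29722, 31245 and 31579 in NRF2null-KYSE70. It was higher in every edited library, by less than ANXA2 (log2 fold change 0.23, adjusted p = 0.00133). The count of ANXA2 was 4.56 ± 0.0865 times that of S100A10 in KYSE70 and 5.45 ± 0.199 times in NRF2null-KYSE70 (two-sided exact permutation test, p = 0.1, the smallest possible). The neighbours of S100A10 had a median log2 fold change of -0.26, beside 0.49 around ANXA2. After neighbour-centring the order turned, with S100A10 at 0.49 and ANXA2 at -0.01. S100A11, the partner of ANXA1, had means of 30505 and 31430 with overlapping libraries and did not pass (0.04, adjusted p = 0.518). It passed upward without NRF2null-KYSE70 library 1 and after neighbour-centring, and its sign turned with total scaling and quantile normalization. S100A6, which binds ANXA11, fell from 20104 ± 1501 to 14670 ± 2159 (-0.46, adjusted p = 0.000778) while ANXA11 rose. The ratio of ANXA11 to S100A6 was 0.643 ± 0.0539 in KYSE70 and 1.01 ± 0.149 in NRF2null-KYSE70 (two-sided exact permutation test, p = 0.1).

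Receptors for secreted annexins were scarce. FPR1, FPR2 and FPR3, the formyl peptide receptors bound by ANXA1, had 0 reads in all 6 libraries, which allows up to 3 reads in each. ANXA2R, the ANXA2 receptor, had 48.2 ± 12.3 and 52.8 ± 3.45 normalized counts and did not pass (log2 fold change 0.16, adjusted p = 0.653).

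Of the plasminogen system, which ANXA2 and S100A10 help to assemble, 7 of 9 genes were tested, 4 were higher and 1 was lower (all tested genes 29.3% and 28.3%), with a median log2 fold change of 0.70 (all tested genes -0.01). PLAUR, the urokinase receptor, stood at 487, 476 and 499.8 in KYSE70 and 1112, 1018 and 1039 in NRF2null-KYSE70. It rose about as much in every edited library, 2.17-fold (1.11, adjusted p = 1.47e-07). The median log2 fold change of PLAUR's neighbours was 0.47, and after neighbour-centring PLAUR stood at 0.64, under the 2-fold threshold. PLAU, urokinase itself, rose from a mean of 3.34 ± 2.16 to 17.5 ± 4.48 (2.21, adjusted p = 0.0106), a change that rests on 6, 4 and 1 reads against 21, 19 and 11. Of the exon bases of PLAU, 31.0% lie opposite the exons of C10orf55, and it reached the filter through the edited line. Plasminogen, PLG, had no read in any library.

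Genes that move phosphatidylserine, the lipid bound by ANXA5, across the membrane gave 3 higher and 1 lower of 7 tested, out of 12 listed, a share called near the 57.6% of all tested genes. TMEM30A, the subunit that flippases need to leave the endoplasmic reticulum, rose from 4633 ± 226 to 7415 ± 255 (0.68, adjusted p = 2.31e-07). The scramblase ANO6 rose from 5263 ± 186 to 7379 ± 682 (0.48, adjusted p = 2.96e-05). PLSCR4, a member of the phospholipid scramblase family, fell from 15, 20 and 21 reads to 4, 3 and 1 (-2.41, adjusted p = 0.00556), and it reached the filter through its KYSE70 level.

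Plasma membrane repair was the broadest list, with 19 of 21 genes tested, 7 higher and 5 lower, a share called near the 57.6% of all tested genes, and a median log2 fold change of 0.04. MYOF, myoferlin, was an abundant transcript and rose from 17854 ± 951 to 41037 ± 4018, 2.30-fold (1.20, adjusted p = 1.05e-08). The related ferlins split: FER1L6 rose from 46.2 ± 9.38 to 116 ± 16.2 (1.32, adjusted p = 0.000495) and DYSF, dysferlin, fell from 72.3 ± 13.5 to 21.8 ± 10.8 (-1.80, adjusted p = 0.00174). Under neighbour-centring as few as 1 gene of this list passed downward.

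The proteins that bind ANXA7 and ANXA11 through penta-EF-hands gave 0 higher and 1 lower of 3 tested (57.6% of all tested genes were called), PEF1 (-0.29, adjusted p = 0.00362). SRI, sorcin, had 3596, 3741 and 3845 in KYSE70 and 3059, 3422 and 3595 in NRF2null-KYSE70. All edited values were lower, the highest only just, and the adjusted p was 0.057 (-0.15). SRI passed in 4 of 17 alternatives. PDCD6 had a log2 fold change of -0.16 (adjusted p = 0.493). Of its merged exon bases, 13.6% (1266 bases) belong also to another gene on its strand and 2.79% to PDCD6-AHRR. The canonical PDCD6 transcript has only 1110 bases, so the share of its reads that is uncertain may be larger than these percentages. Of the phospholipase, RAS and PKC partners, 3 of 5 were tested, 2 were higher and 0 were lower (57.6% of all tested genes were called). PLA2G4A, the cytosolic phospholipase A2 inhibited by ANXA1, rose from 417 ± 22.2 to 599 ± 75.2 (0.52, adjusted p = 0.00162). RASA1, which ANXA6 recruits, rose from 1838 ± 68.9 to 2423 ± 221 (0.40, adjusted p = 0.000416) while ANXA6 was lower, and 14.7% of its exon bases lie opposite CCNH. PRKCA, a protein kinase C, had means of 1456 and 1340 and did not pass (-0.11, adjusted p = 0.396).

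**Figure D4:**
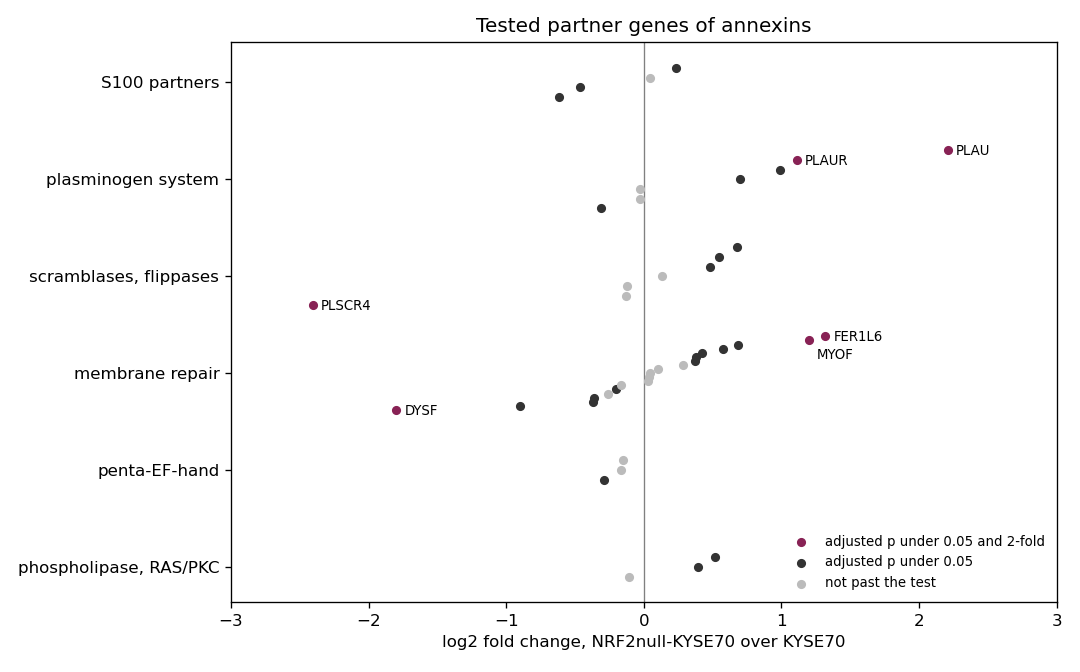
Log2 fold change of every tested gene in the 6 partner lists, coloured by the limma test, with names for genes past both thresholds. PLAU (2.21) and PLAUR (1.11) stand to the right, PLSCR4 (-2.41) and DYSF (-1.80) to the left, and most other partners lie within 1 of 0.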

How the data were processed

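RNA-seq was performed on 3 libraries of KYSE70 and 3 of NRF2null-KYSE70. The authors aligned quality-filtered 150-base reads to hg38 with STAR (2.6.90c), counted them per gene with featureCounts (1.5.1) and normalized the counts with DESeq2. FastQC (0.11.5) and cutadapt (1.12) are also in the submitters' processing notes. The study names a RefSeq annotation, whereas the table lists Ensembl identifiers. The use of strand and of reads with several alignments is not given in the sources used here. The deposited values are a signal in normalized counts, that is, reads divided by 1 size factor per library. Columns carried the line's name only, so libraries are numbered by column order. Whole reads were recovered, with 100% of values within 0.01 of a whole number of reads.

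Differences were tested with limma (3.58.1, R 4.3.3; trend) on log2(normalized count + 1) for the 15994 genes with a mean of at least 10, two-sided, with Benjamini-Hochberg adjustment. The thresholds were an adjusted p under 0.05 alone, and together with a change of at least 1 in log2 in either direction. The pseudocount shrinks changes of low genes, and a mean of logs can lie above or below the log of a mean. The script was tested on simulated data. On the recovered reads, DESeq2 (1.42.0) called 2341 genes past both thresholds and edgeR (4.0.16) called 2350, where limma called 2344. The alternatives also covered a pseudocount of 0.1 or 5, a filter at 50 or none, TMM, total and quantile scaling, no trend, each library left out, and neighbour-centring, which subtracts the median of the 40 nearest tested protein-coding genes.

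The members and lists were chosen with earlier results of these data known. All annexins were named, and of each list the genes past both thresholds, the 2 with the highest mean where fewer than 2 passed, and the partners S100A10, S100A11, S100A6, SRI, PDCD6, PLA2G4A and RASA1. Count ratios and the canonical transcript length were added after values were seen. The labels do not say that libraries came from separate cultures, so p-values measure the spread between libraries, which may be technical. Read intervals and the floor of 3 reads cover counting error only. Positions came from GENCODE v44 on hg38, promoters from RefSeq. Protein sequences were not used here.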

Additional observations from a re-analysis of the deposited data

How the results depend on the processing

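The count of genes past both thresholds, 2344, was 1511 with a filter at a mean of 50 and 9206 at an adjusted p alone. It was 2228 to 2346 with each library left out. The count of annexins past both thresholds, 1 (ANXA10), was 0 with the filter at 50, which removes ANXA10, and 7 at an adjusted p alone. ANXA1 was not past an adjusted p of 0.05 with total scaling (log2 fold change 0.12, adjusted p = 0.092) or without the trend (0.20, adjusted p = 0.0723), and lay between 0.15 and 0.25 with each library left out. Neighbour-centring turned ANXA1 (-0.15) and ANXA2 (-0.007384) below 0, because their neighbours' medians were higher than their own values. Quantile normalization turned ANXA7 (-0.021) and left ANXA11 at 0.059 (adjusted p = 0.289). For these the cause was not tested. With each library left out, ANXA7 lay between 0.065 and 0.14, ANXA9 between -0.11 and 0.39, the lowest without NRF2null-KYSE70 library 3, and ANXA10 between -3.84 and -2.35. ANXA4, ANXA5 and ANXA6 kept their direction and call in 17 of 17 alternatives, ANXA10 in 16 of 16 and ANXA2 in 16 of 17. Total scaling moved the median of all genes by -0.08. Among calls past both thresholds, 50.7% were lower, 55.9% with total scaling and 46.7% with quantile normalization.

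With the canonical transcript length, an alternative added after seeing the data, the ranks of ANXA5, ANXA7, ANXA4, ANXA11 and ANXA6 in KYSE70 were 3, 4, 5, 6 and 7, and those of ANXA4 and ANXA6 in NRF2null-KYSE70 were 6 and 7. CHMP4A, 1 of the 5 lower genes of the repair list, lost its call in 10 of 16 alternatives. ANXA3, ANXA9, ANXA10, PLAU and PLSCR4 rest on few reads, which makes their fold changes imprecise. No paired analysis was possible because column names give the line without a number.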
